A study of Gallus gallus with 5 samples.

Results

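Histone H4 dimethylated asymmetrically on arginine 3 (H4R3me2a) was mapped by chromatin immunoprecipitation with sequencing (ChIP-seq) in immature chicken erythrocytes, and its sites were set against input chromatin. The regions described are the stretches of bases that a peak covered in both H4R3me2a peak lists, less every stretch that touched an input peak by 1 bp or more. They numbered 56366 of the 60689 stretches found in both lists. The H4R3me2a lists held 77936 and 113426 peaks, and the input list 10193. The groups were H4R3me2a chromatin, with 2 libraries made with the same Active Motif antibody, and input chromatin, made with no antibody, with 1 library. All 3 came from nuclei of polychromatic erythrocytes in G0, fixed with 0.5% formaldehyde and sheared to 200 bp. The labels give every sample 1 breed in one field and another in a second (Lohmann and Bovan), and no genotype, treatment or age. The design text calls the H4R3me2a libraries biological replicates without saying what separated them. The peak lists name no genes, so the cell type could not be checked against its markers.

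Arginine methylation of histones is carried out by the PRMT enzymes. PRMT1 makes the asymmetric mark on arginine 3 of histone H4, the mark is known from active chromatin, and at the chicken beta-globin locus PRMT1 activity is known to precede acetylation of the neighbouring histone tails. Avian red cells keep their nucleus, and as they mature most of that nucleus becomes condensed and silent. The chicken genome is divided into a few large macrochromosomes and many small microchromosomes, which are rich in genes and in G and C bases.

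Replicate 1 was a SOLiD library with 10.3 M tags once 1 tag per position was kept, and replicate 2 an Illumina library with 31.2 M. The input was an Illumina library with 27.1 M tags. Replicate 1 was called with MACS 1.4.2 against a control library of 23.3 M tags that is not among the samples, and replicate 2 and the input with MACS 2.0.10.20120913 and no control. The labels state a size selection of fragments, to 100 to 250 bp, for the SOLiD library only. Platform, size selection, depth, caller and control therefore differed together between the replicates and cannot be told apart. The header of the replicate 2 list names alignment file 12, the number that the labels give to the input, while the label of replicate 2 says 11. The header of the input list names alignment file 10, which the labels give to a library of another mark, while the label of the input says 12. The run names inside both headers match the labels, and the lists were used as labelled. The alignment file named in the replicate 1 header is spelled H3R3me2a inside a folder spelled H4R3me2a. Values from replicate 1 alone and replicate 2 alone stand beside the main results for this reason. Where input peaks were removed from a single list, the same input list was used, so the doubt about its file remains. Whether the labels or the header numbers are right was not tested, and every contrast with input rests on the labels. Every value per peak (fold, significance, tags, pileup) is the authors' own, given by the caller. Such a value, where given for a region, is that of the whole peak behind it, so regions in 1 peak share it. With 2 H4R3me2a libraries and 1 input library the smallest p of an exact 2-sided permutation test over libraries is 0.333, so no test was made.

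Replicate 1 held 77936 peaks and replicate 2 held 113426. Of the replicate 1 peaks, 68.5% overlapped a peak of replicate 2, and of the replicate 2 peaks, 51.2% overlapped a peak of replicate 1. By bases, replicate 2 covered 37.7% of the replicate 1 peaks, 6.26 times its cover of the spanned genome. Replicate 1 covered 52.1% of the replicate 2 peaks. That is again 6.26 times its own genome cover, which follows from the first ratio by construction. The spanned genome is the sum over chromosomes of the highest peak end in the 3 lists, 1033 Mb without the mitochondrial genome. Regions in both lists off input peaks covered 28.9 Mb, which is 2.79% of it. Of the 60689 shared stretches, 4323 touched an input peak, which is 7.12% (95% Wilson interval 6.92 to 7.33, counting error only). Input peaks covered 3.46% of the shared bases, 16.8 times their cover of the spanned genome. The regions off input peaks held 89.0% of the shared bases.

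H4R3me2a regions were mostly narrower than 1 kb. The median was 450.5 bp, the middle 50% ran from 325 to 627 bp, and 90.7% were between 200 and 1000 bp wide. Replicate 1 peaks had a median width of 803 bp, replicate 2 peaks 432 bp and input peaks 155 bp. Each list had its own floor: the narrowest peak was 212 bp in replicate 1, 236 bp in replicate 2 and 99 bp in the input. In replicate 2 and the input that floor equals the fragment length d in the header, and 3830 replicate 2 peaks (3.38%) had exactly that width. A region narrower than 212 bp can therefore only be a partial overlap of 2 peaks, and 980 regions (1.74%) were under 100 bp. At the upper end, 3211 regions (5.70%) reached 1 kb and 80 reached 2 kb. Among replicate 1 peaks 31.8% reached 1 kb, among replicate 2 peaks 10.16% and among input peaks 0.814%.

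**Figure D1:**
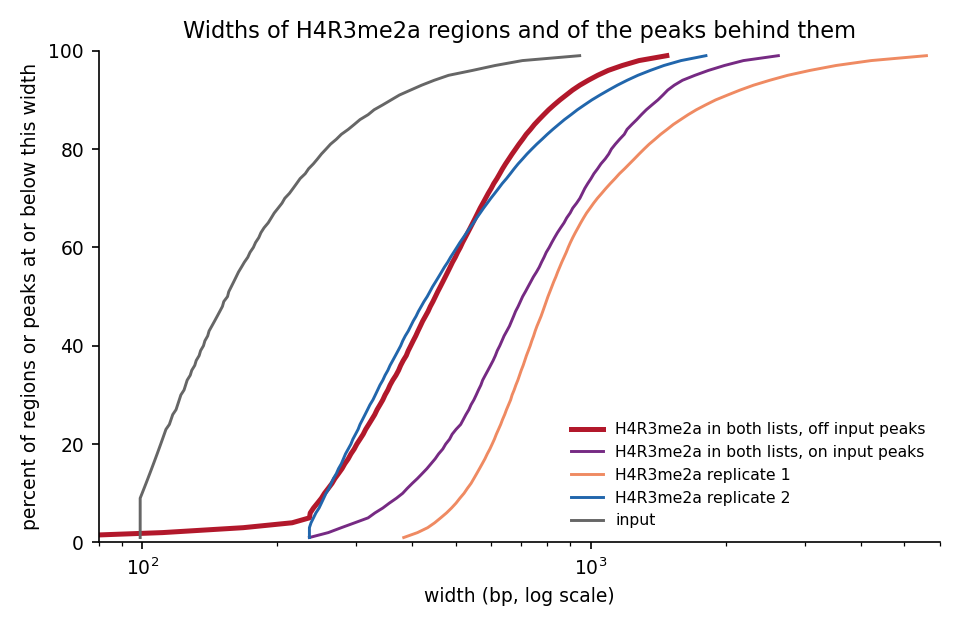
Cumulative percent of regions or peaks (vertical axis) at or below each width in bp (horizontal axis, log scale), drawn from the 1st to the 99th percentile, for H4R3me2a regions off input peaks, those on input peaks, both H4R3me2a lists and the input list. The regions off input peaks follow the replicate 2 curve (medians 450.5 and 432 bp), far to the right of the input (155 bp) and left of replicate 1 (803 bp).

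The widest regions were single blocks. Chromosome 19:9927547-9931151 was 3605 bp wide and was the whole of a replicate 2 peak, inside a replicate 1 peak of 4270 bp. The replicate 1 peak held 1509 tags at a deposited fold of 37.2, and the replicate 2 peak reached a pileup of 163 at a fold of 2.95. Chromosome 23:2400296-2403445 followed with 3150 bp, and its peaks had 463 tags and a pileup of 83. Chromosome 2:275671-278693 (3023 bp), chromosome 24:1172372-1175294 (2923 bp) and chromosome 9:25203108-25205951 (2844 bp) were next. In all 5, the region had the full width of its replicate 2 peak, no other region lay within 1 kb, and the nearest input peak was between 4.49 and 196.9 kb away. Their replicate 2 folds, from 2.20 to 2.95, lay around the median of 2.85 over all regions. Their replicate 1 folds were from 24.96 to 37.2, above the median of 16.005.

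Most regions were a replicate 2 peak lying inside a broader replicate 1 peak. This held for 36288 regions (64.4%), where the median replicate 1 peak was 1058 bp and the median replicate 2 peak 417 bp wide. A replicate 1 peak lay inside a replicate 2 peak in 1774 regions (3.15%), and the other 18304 (32.5%) were partial overlaps. The regions drew on 50003 replicate 1 peaks, of which 5188 held 2 or more regions and 7 held 6. They drew on 54266 replicate 2 peaks, of which 2065 held 2 or more. Summits are the points of highest signal. The median distance between the summit of the replicate 1 peak and that of the replicate 2 peak was 139 bp. In 42.9% of regions the summits lay within 100 bp of each other. The distance was 486 bp at the 0.75 quantile and 1489 bp at the 0.95 quantile. Among the 41242 regions made of 1 peak from each list, the median distance was 92 bp. The peaks behind a region overlap by rule, which by itself limits the distance between their summits. No expected distance was computed, so whether the summits lay closer than the overlap requires was not tested. Both summits fell within the region in 67.8% of cases and neither in 4.93%.

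Regions lay close together, with long empty stretches between. The median gap from the end of a region to the start of the next was 4.77 kb, with the middle 50% from 1.44 to 13.3 kb. The mean gap, 17.7 kb, was 3.72 times the median. It was 6.18 times the median in replicate 1, 2.25 times in replicate 2 and 3.06 times in the input. Gaps of 1 kb or less made up 19.6% and gaps of 10 kb or less 69.6%, while 1962 gaps (3.48%) exceeded 100 kb and 16 exceeded 1 Mb. Median gaps in the single lists were 1.96 kb in replicate 1 and 3.79 kb in replicate 2, against 33.0 kb in the input. The input list held only 10193 peaks, against 77936 and 113426, and fewer peaks by themselves lengthen gaps. On autosomes spacing followed chromosome size: the median gap was 3.35 kb on microchromosomes (11 and up), 4.42 kb on intermediate chromosomes (6 to 10) and 7.40 kb on macrochromosomes (1 to 5). Z, which spans 74.6 Mb, was outside this order with a median gap of 21.1 kb, against 9.96 kb on chromosome 2, the autosome with the widest spacing. Gaps over 100 kb were 0.566% of all gaps on microchromosomes, 2.15% on intermediate chromosomes, 6.07% on macrochromosomes and 18.9% on Z.

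**Figure D2:**
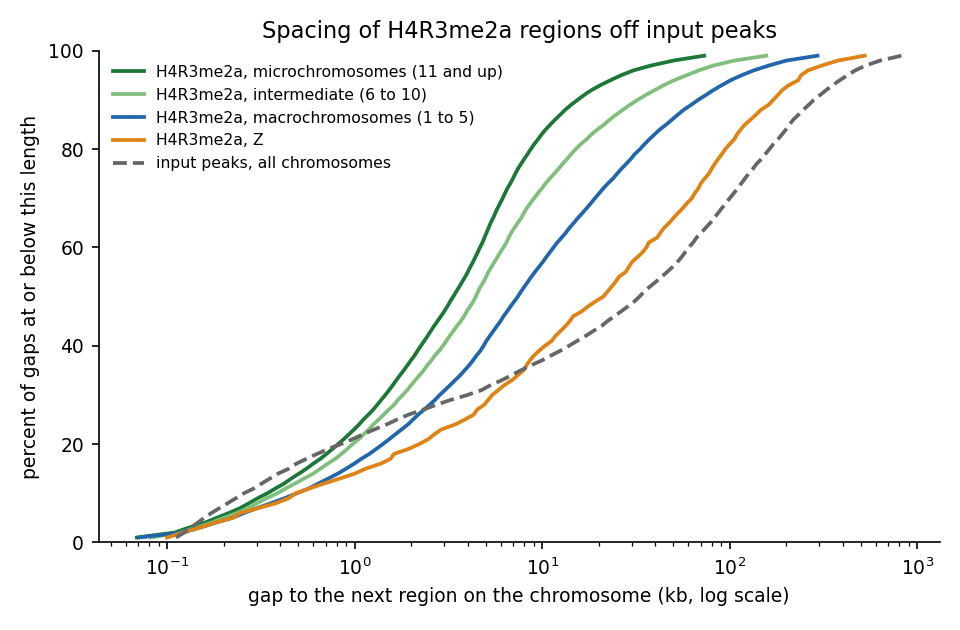
Cumulative percent of gaps (vertical axis) at or below each length in kb (horizontal axis, log scale), from the 1st to the 99th percentile, for H4R3me2a regions off input peaks by chromosome class and for input peaks on all chromosomes (dashed). The curves stand in the order microchromosomes, intermediate, macrochromosomes and Z, with medians of 3.35, 4.42, 7.40 and 21.1 kb. The input, a list of fewer peaks (10193), has a median of 33.0 kb.

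Joined by gaps of 1 kb or less, regions formed short chains. Of all regions 36561 (64.9%) stood alone, 13866 were in pairs, 4482 in threes, 1160 in fours and 297 (0.527%) in 58 chains of 5 or 6, and no chain held more than 6. Replicate 2 peaks were alike, with 0.424% in chains of 5 or more, but in replicate 1 it was 16.5%, and chains there reached 24 peaks and 73.4 kb. In the input it was 4.45%, with up to 15 peaks. With a joining gap of 3 kb, 10.1% of the regions were in chains of 5 or more, the longest holding 21 regions. Of the 11030 gaps of 1 kb or less, 48.3% lay inside a single replicate 1 peak, 18.7% inside a single replicate 2 peak, and 33.0% between peaks that were separate in both lists. Close neighbours are therefore in large part 1 broad block in 1 list that was split in the other.

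Replicate 1 tags and replicate 2 pileup were both higher in longer chains, while fold went up in replicate 1 and down in replicate 2. Median tags in replicate 1 were 47 for lone regions, 71 for pairs, 113.5 for chains of 3 or 4 and 224 for longer chains, and median folds were 14.7, 17.7, 20.3 and 22.9. These tags are totals over the whole replicate 1 peak, and regions in 1 peak share its total. The median width of those peaks was 829, 1102, 1570 and 2321 bp, so more tags here need not mean a denser signal. In replicate 2 the median pileup was 43, 53, 58 and 65 in the same order, but the median fold was 3.05, 2.66, 2.29 and 1.99. The share on microchromosomes was 35.2% for lone regions, 42.0% for pairs, 50.4% for chains of 3 or 4 and 71.7% for longer chains. The longest chain, chromosome 9:14012019-14018220, held 5 regions over 6.20 kb, of which they covered 54.6%. Replicate 1 had 2 peaks there with 359 and 617 tags, and replicate 2 had 5 with pileups from 79 to 103 at folds of 1.70 to 2.21. Chains of 5.90 kb at chromosome 28:2207529-2213424 (6 regions), 5.41 kb at chromosome 18:9541129-9546535, 5.31 kb at chromosome 14:12930205-12935511 and 5.26 kb at chromosome 26:90380-95634 (5 regions each) came next. No input peak lay in any of these 5 chains, the nearest being 23.7 kb away.

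Counted in bins of 100 kb, H4R3me2a regions were unevenly spread. The mean was 5.45 regions per bin and the median 3. The most was 40, and the variance was 8.67 times the mean. The 1032 densest bins of 10313 held 40.7% of the regions. The densest 1032 bins of each list held 41.1% of the replicate 1 peaks and 25.8% of the replicate 2 peaks, against 53.2% of the input peaks. The input was also the sparsest list, with 0.973 peaks per bin on average, against 7.53 and 10.96, and 54.7% of its bins empty. A sparse list tends to a higher share, and the lists were not matched for number, so the share does not rank them by concentration. Variance over mean was 11.9 in replicate 1 and 6.83 in replicate 2, against 5.89 in the input. For the input it ran from 3.28 on macrochromosomes to 32.7 on Z. This ratio depends on the mean count per bin, so it does not rank the lists by concentration either. Over bins the 2 H4R3me2a lists went together, with a Spearman coefficient of 0.858 between their peak counts (10313 bins, a description). The coefficient between H4R3me2a peaks and input peaks was 0.188 in replicate 1 and 0.202 in replicate 2. The empty input bins are tied in rank, which by itself can weaken a coefficient. These values are therefore not on a like footing with 0.858. Within microchromosomes, intermediate chromosomes, macrochromosomes and Z the coefficient between the replicates was 0.806, 0.900, 0.824 and 0.681. Bins share libraries, and base composition was not measured. The bins of highest cover were chromosome 26:4600001-4700000, with 36 regions over 24.4%, and 400001-500000 on the linkage group E22C19W28_E50C23, also with 36 regions over 24.4%. Chromosome 18:9800001-9900000 (23.4%), chromosome 18:9700001-9800000 (23.3%) and chromosome 13:10200001-10300000 (22.1%) followed. Input peaks covered between 0.507 and 0.909% of each.

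No region lay in 2189 of these bins (21.2%). In 1093 of the empty bins replicate 2 had a peak and replicate 1 none, in 81 it was the reverse, in 666 both had peaks, and in 349 neither had. Empty bins made up 7.23% on microchromosomes, 17.6% on intermediate chromosomes, 24.1% on macrochromosomes and 37.8% on Z. An input peak lay in 33.9% of the empty bins and in 48.3% of the other bins. The longest stretch without a region was 1699 kb at chromosome Z:23987552-25686473, where replicate 1 had 5 peaks, replicate 2 had 2 and the input none. Stretches of 1623 kb at chromosome 3:11527645-13150747, 1621 kb at chromosome 1:76822235-78442884, 1607 kb at chromosome 2:52268929-53875494 and 1593 kb at chromosome 4:19240495-20833886 followed. In each of these 4, replicate 1 had 3 or 4 peaks, replicate 2 had 9 to 15 and the input 1 to 9. The chromosome 1 stretch also held 2 shared stretches that were left out because they touched input peaks, and the chromosome 2 stretch held 1. Assembly gaps were not masked, so a stretch may hold unsequenced bases.

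The deposited folds of the regions had a negative but weak rank relation between the replicates. Over the 56366 regions the Spearman coefficient between the folds was −0.33, and that between replicate 1 tags and replicate 2 pileup was 0.55 (descriptions; regions of a list share its library and caller). The negative relation of the folds was present within microchromosomes (−0.35, 21757 regions), intermediate chromosomes (−0.30, 10276), macrochromosomes (−0.18, 22948) and Z (−0.09, 1186). For significance the coefficient between the replicates was −0.096 over all regions. By class it was −0.14 on microchromosomes, −0.08 on intermediate chromosomes, 0.04 on macrochromosomes and 0.05 on Z. Folds are relative to different backgrounds: replicate 1 to a control library, replicate 2 to its own signal in the surrounding 10 kb. The median fold was 16.005 in replicate 1, with the middle 50% from 10.9 to 21.8, and 2.85 in replicate 2, from 2.23 to 3.804. The replicate 1 peaks under the regions had a median of 54 tags (33 to 114), counted over a median peak width of 903 bp. The replicate 2 peaks had a median pileup of 47 (36 to 64), which is a height at the summit and a different measure.

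Whether a peak was found in both lists depended on its fold in a different way in each. In replicate 1 the share of peaks also found in replicate 2 went up from decile to decile of fold, with 56.4% in the lowest and 85.5% in the highest. In replicate 2 the share found in replicate 1 was 88.1% in the lowest decile (folds up to 2.07), 34.0% in decile 7 (3.22 to 3.46) and 69.1% in the highest (4.77 and up). The lowest decile of replicate 2 was 59.9% microchromosomal and the highest 18.2%. The highest was also the one nearest to the input: 33.9% of its peaks lay on an input peak, against 1.82 to 5.51% in the lowest 8 deciles. In replicate 1 the share on input was 10.8% in the highest decile and 3.72 to 5.99% in the others. Peaks that stayed in 1 list were narrower than those in both, with medians of 706 and 858 bp in replicate 1 and of 369 and 518 bp in replicate 2. The replicate 1 peaks without a partner were 44.8% microchromosomal and 32.0% macrochromosomal, and those of replicate 2 were 19.8 and 62.2%. A peak found in 1 list only may still have had signal below the calling threshold of the other.

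**Figure D3:**
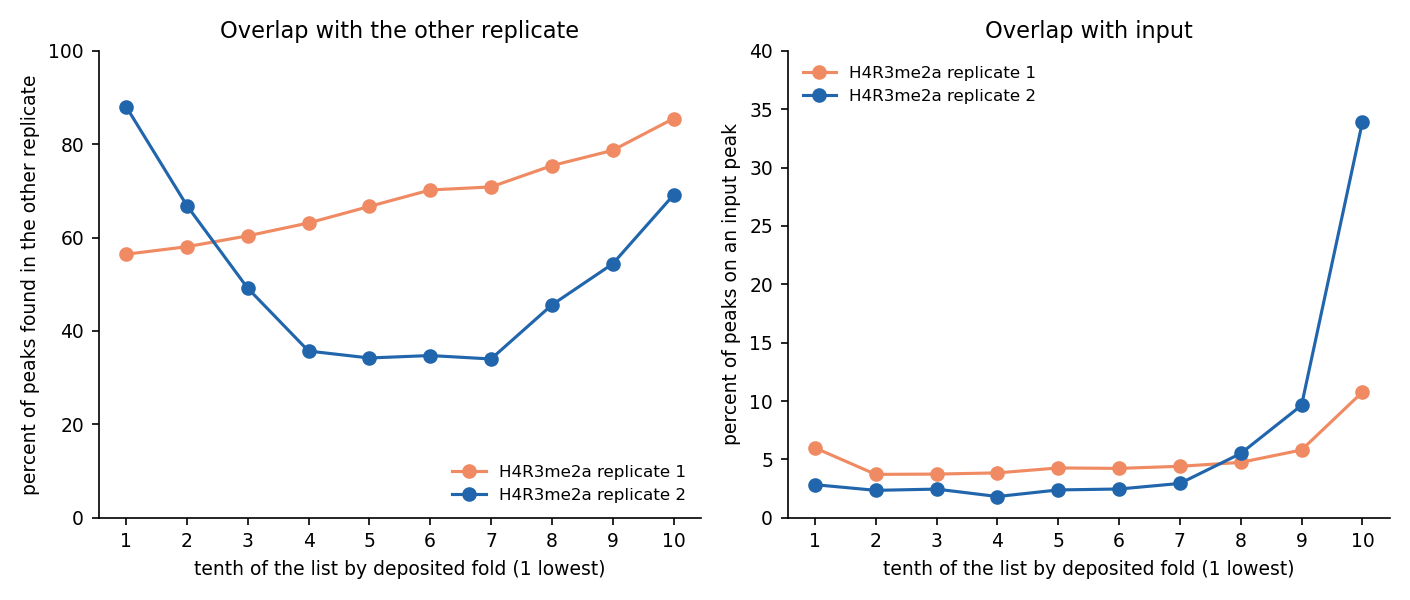
Peaks of each H4R3me2a list in 10 equal groups by deposited fold (horizontal axis, lowest group first), with the percent overlapping a peak of the other replicate on the left and the percent overlapping an input peak on the right. Replicate 1 climbs to 85.5% on the left, replicate 2 has its minimum of 34.0% in group 7, and on the right the highest replicate 2 group stands apart at 33.9%.

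As a class, microchromosomes were denser in H4R3me2a than intermediate chromosomes, macrochromosomes or Z. Regions off input peaks numbered 123.3 per Mb on microchromosomes, 66.5 on intermediate chromosomes, 36.7 on macrochromosomes and 15.9 on Z. Microchromosomes make up 17.1% of the spanned genome and held 38.6% of the regions. Macrochromosomes make up 60.6% and held 40.7%. The density ratio of microchromosomes to macrochromosomes was 3.36 for the regions, and over the 2 full H4R3me2a lists it was 2.75 ± 1.06 (SD, n = 2; 3.50 in replicate 1 and 2.00 in replicate 2), against 1.23 in the single input list. Both H4R3me2a values were above the input value, though with 1 input library its own spread is unknown. Relative to macrochromosomes, density on Z was 0.434 for the regions, 0.691 in replicate 1 and 0.363 in replicate 2, against 0.956 in the input. No correction was made for the number of Z copies per cell, so fewer copies and less of the mark per copy cannot be told apart on Z.

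Over the 27 autosomes above 1 Mb, densities of H4R3me2a regions ranged from 30.7 to 199.1 per Mb. Chromosome 26 was the densest, with 1016 regions (199.1 per Mb) over 10.19% of its spanned length, followed by chromosome 28 (178 per Mb) and chromosome 24 (177 per Mb). Chromosomes 2 (30.7), 1 (35.4) and 3 (37.3 per Mb) were the least dense. Density did not follow length throughout: chromosome 22 (3.94 Mb) had 106.7 per Mb, below chromosome 15 (12.97 Mb) with 116.9. The Spearman coefficient of density with chromosome length was −0.927 for the regions and −0.457 for the input (27 autosomes, a description). Input density on these chromosomes ran from 6.09 per Mb, on chromosome 24, to 39.9 on chromosome 25. It was 37.0 on chromosome 27 and 20.6 on chromosome 28, and 13.2 at most on the others. These 3 chromosomes of high input density were also dense in H4R3me2a regions, with 157 per Mb on chromosome 25, 165 on chromosome 27 and 178 on chromosome 28, and the Spearman coefficient between region density and input density was 0.38 over the 27 autosomes. The width of the regions did not follow chromosome size: medians lay between 428 and 504 bp, with a coefficient of 0.15. Replicate 1 peaks, by contrast, were broader on small chromosomes, with medians from 734 bp on chromosome 2 to 1094 bp on chromosome 25 and a coefficient of −0.96. Replicate 2 peaks went the same way less strongly, with medians between 414 and 521 bp and a coefficient of −0.605.

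The replicates diverged with chromosome size in fold and in cover. The median replicate 1 fold of the peaks under the regions was 21.8 on chromosome 26 and 13.0 on chromosome 2, and over the 27 autosomes its Spearman coefficient with length was −0.965. The median replicate 2 fold was 2.10 on chromosome 26 and 3.46 on chromosome 2, with a coefficient of 0.966. Replicate 1 peaks covered 48.0% of chromosome 26 and 3.62% of chromosome 2, and replicate 2 peaks 13.2 and 4.64%. Of the replicate 1 bases, replicate 2 covered 22.0% on chromosome 26 and 51.0% on chromosome 2. In the other direction it was 79.99% on chromosome 26 and 39.9% on chromosome 2. Among the macrochromosomes the lists were not ordered alike: replicate 1 peaks covered 7.03% of chromosome 5 and replicate 2 peaks 5.89%, while on chromosome 1 it was 4.37 and 5.35%.

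**Figure D4:**
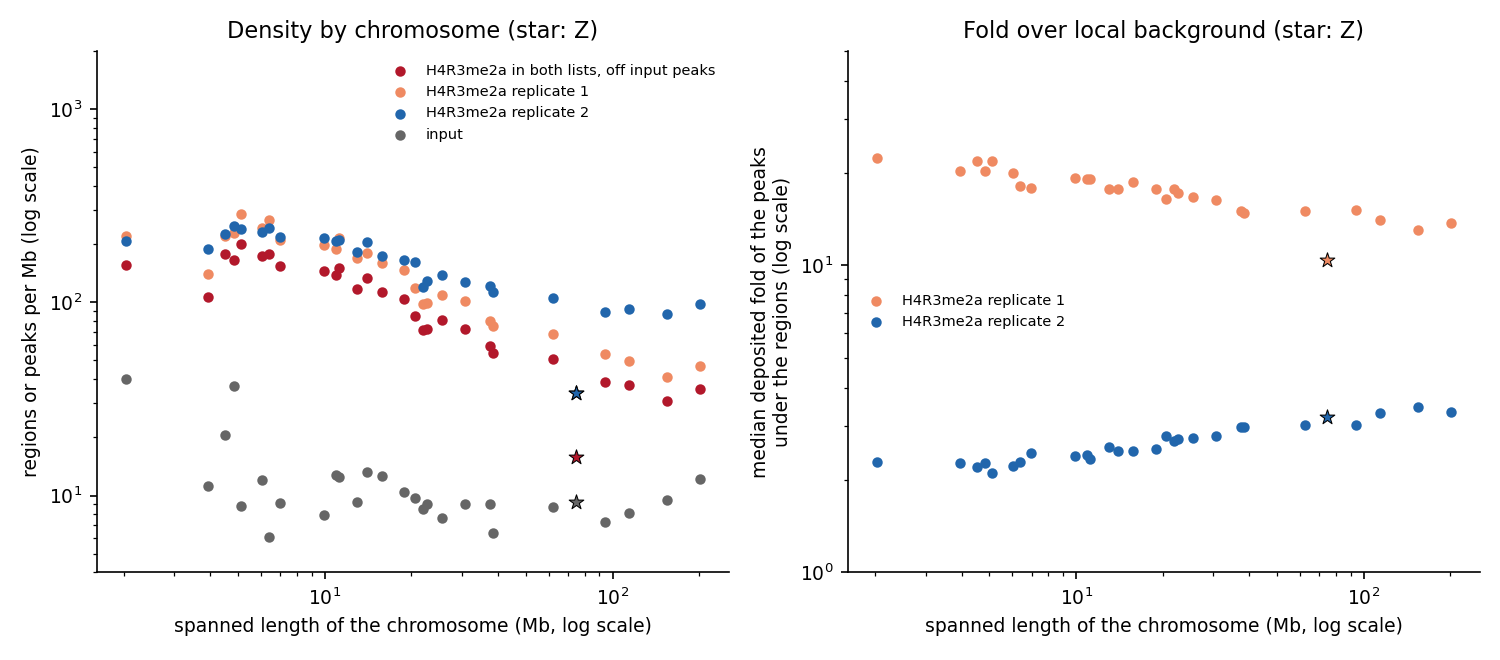
Left, regions or peaks per Mb (log scale) against the spanned length of each chromosome (log scale) for the 27 autosomes above 1 Mb (dots) and Z (stars; those of replicates 1 and 2 coincide at 33.9 and 33.8 per Mb). Right, the median deposited fold, in each replicate, of the peaks under the H4R3me2a regions off input peaks; it falls with length in replicate 1 (22.4 to 13.0) and climbs in replicate 2 (2.10 to 3.46).

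Within chromosomes, H4R3me2a regions were denser towards the ends, although on intermediate chromosomes and microchromosomes the outermost 0.5 Mb was less dense than the next. On macrochromosomes there were 148 regions per Mb in the outermost 0.5 Mb, 134 between 0.5 and 1 Mb from an end, 95.4 between 1 and 2 Mb, 54.0 between 2 and 5 Mb and 32.5 beyond 10 Mb. These classes include the start of chromosome 4, whose first 5 Mb held 820 regions, and its part in the gradient was not tested. Between 0.5 and 1 Mb from an end the density was 4.13 times that beyond 10 Mb for the regions, 5.15 times in replicate 1 and 2.51 times in replicate 2, against 1.17 times in the input. In the outermost 0.5 Mb the ratios were 4.56 for the regions, 4.78 in replicate 1 and 2.86 in replicate 2, and 3.22 in the input, so there the input density moved as well and its part was not tested. Intermediate chromosomes had 127 regions per Mb between 0.5 and 1 Mb and 54.1 beyond 10 Mb, a ratio of 2.34, against 0.458 in the input. In their outermost 0.5 Mb there were 97.8 regions per Mb, a ratio of 1.81, against 2.82 in the input. On microchromosomes the density was 171 per Mb between 0.5 and 1 Mb and 80.6 between 5 and 10 Mb, a ratio of 2.12, but the input ratio was 3.09. In the outermost 0.5 Mb it was 134 per Mb, a ratio of 1.66, against 3.39 in the input. Only the longer microchromosomes reach that far inwards, so this last contrast also compares chromosomes.

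**Figure D5:**
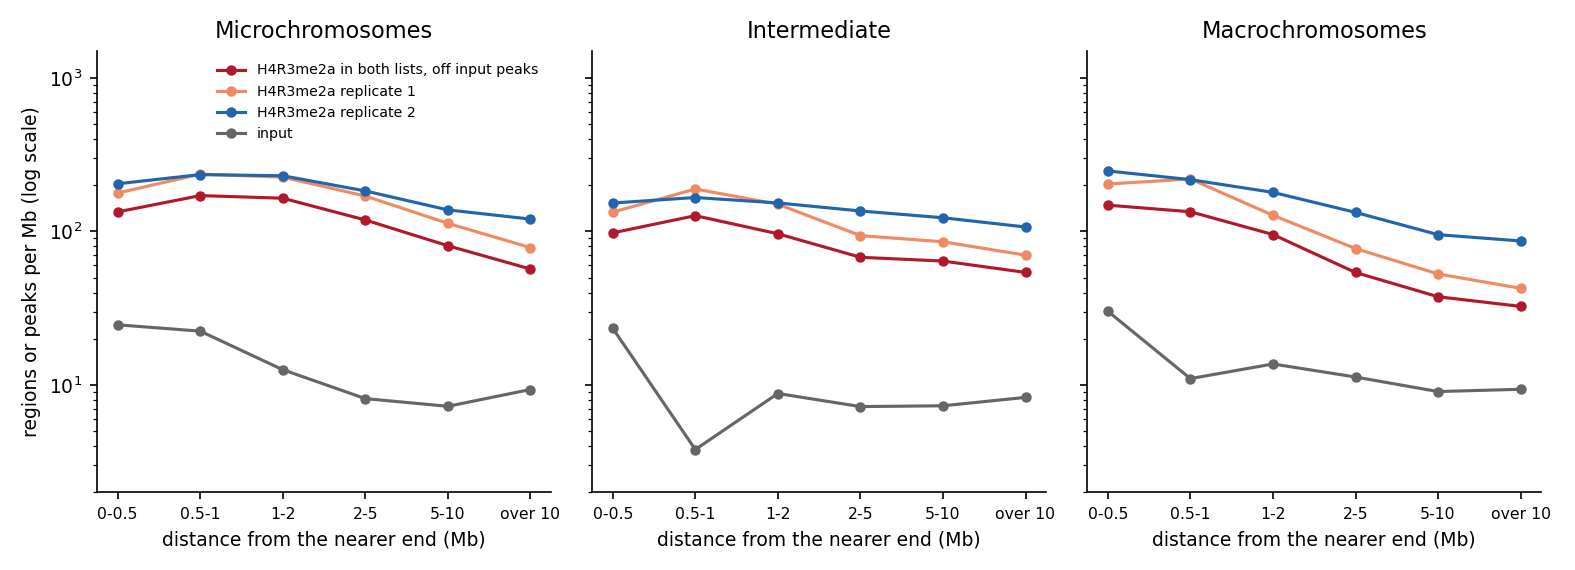
Density per Mb (log scale) in classes of distance from the nearer end of the spanned chromosome (Mb), for microchromosomes, intermediate chromosomes and macrochromosomes above 1 Mb, with H4R3me2a regions off input peaks, both H4R3me2a lists and the input. On macrochromosomes the regions go from 148 per Mb in the outermost class to 32.5 in the innermost, and the input has 30.2 in the outermost class and 9.06 to 13.7 in the others.

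Chromosome 4 carries an ancestral microchromosome as its short arm, at the start of the sequence. In its first 20 Mb H4R3me2a regions numbered 84.7 per Mb, against 26.6 per Mb over the rest, a ratio of 3.19. The first 5 Mb had 164 regions per Mb, a density between those of chromosome 25 (157 per Mb) and chromosome 27 (165 per Mb). These 5 Mb are also a chromosome end, so arm and end cannot be told apart there. Windows of 5 Mb ran from 42.4 to 164 per Mb in the first 20 Mb and from 10.8 to 54.1 in the rest, so the ranges overlapped. The ratio was 3.30 in replicate 1 and 1.89 in replicate 2, against 1.01 in the input. The boundary at 20 Mb was chosen with these densities in view.

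The share of H4R3me2a stretches on input peaks differed between chromosomes. On Z, 280 of 1466 shared stretches touched an input peak, or 19.1% (17.2 to 21.2), against 8.54% (8.20 to 8.89) on macrochromosomes, 5.79% (5.36 to 6.24) on intermediate chromosomes and 5.44% (5.15 to 5.74) on microchromosomes. The intervals are for counting error only and take stretches as independent. Input peaks on Z were clustered, with 80.6% of them in the densest 75 of 746 bins. Between 2 and 5 Mb from the ends of Z, 129 of the 280 stretches on input peaks stood beside 49 regions off them, and the input had 53.8 peaks per Mb. On the 0.259 Mb of W, 7 of 11 shared stretches touched an input peak and 4 regions were left. Chromosome 16, which spans 0.432 Mb, kept 75 regions, and 30.6% of its shared stretches were on input peaks, with 107 input peaks per Mb. Among the microchromosomes above 1 Mb the share was highest on chromosome 25 (14.1%) and chromosome 27 (12.5%). It was 6.87% or less on the others. The mitochondrial genome had no replicate 1 peak, 6 replicate 2 peaks and 5 input peaks, and so no region.

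The regions left out differed from those kept in width and in replicate 2 signal. Regions off input peaks had a median width of 450.5 bp and those on input peaks 705 bp, and 5.70 and 26.1% of them reached 1 kb. The median replicate 2 pileup was 47 off input peaks and 100 on them, and the median replicate 2 fold 2.85 and 4.81. In replicate 1 the folds were nearly alike, at 16.005 off and 16.12 on input peaks, while the tags were 54 and 89. Input peaks covered 31.4% of the bases of the regions on them, and 84.9% of these regions held a single input peak. At the border of the rule, 329 regions off input peaks lay within 100 bp of one, and 171 regions left out had 50 or fewer bases under one. Their median pileups in replicate 2 were 101 and 93 and their median folds 5.98 and 5.46, so the regions just inside the rule had replicate 2 values like those of the regions left out. Within 1 kb of an input peak lay 1950 regions (3.46%), and the median distance to the nearest input peak was 49.1 kb. Of the 10193 input peaks, 5096 lay under a shared stretch and 1027 (10.1%) under no H4R3me2a peak.

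The share on input peaks went up with width and with replicate 2 signal. Among the shared stretches it was 1.38% in the narrowest decile and 23.3% in the widest. By replicate 2 significance it was 0.264% in the lowest decile and 37.9% in the highest. By replicate 1 significance it was 5.82% in the lowest and 13.6% in the highest. A wide stretch touches an input peak more easily, and the deciles were not matched for width.

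By mean rank of deposited significance the leading region was chromosome 19:6525423-6526888, which was 1466 bp wide, with 364 tags at a fold of 56.7 in replicate 1 and a pileup of 165 at a fold of 5.23 in replicate 2. Its nearest input peak was 55.7 kb away. Chromosome 4:29226-30539 had rank 2, with 1179 tags at a fold of 96.9 and a pileup of 188 at a fold of 6.64. Chromosome 20:13945306-13946399 and chromosome 20:13944436-13945171, which took ranks 3 and 5, lay in 1 replicate 1 peak of 1827 tags and were separate replicate 2 peaks with pileups of 253 and 228. Chromosome 5:15225660-15225719, with rank 4, was a 60 bp overlap of a 2060 bp replicate 1 peak and a 745 bp replicate 2 peak. Replicate 1 significance has a ceiling: 2179 regions lay under peaks with a −log10 p of 310 or more, so their order by it is uncertain. Over all regions the Spearman coefficient between replicate 1 and replicate 2 significance was −0.096, so the mean rank joins nearly unrelated orders. By mean rank of fold the leaders were other regions, chromosome 1:7145526-7146423, chromosome 5:48358523-48359429, chromosome 11:2146074-2146950, chromosome 4:64687289-64687584 and chromosome 3:107229250-107230041, with folds of 39.0 to 44.7 in replicate 1 and 8.43 to 11.7 in replicate 2. The regions on chromosome 5 and chromosome 4 among these lay 0.081 and 0.041 kb from an input peak. Gene annotation of this build is not used here, and genes at these positions are not named.

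Isolated regions, with no other region within 50 kb on either side, were few. They numbered 1642 (2.91%), and their median width of 449 bp was that of the other regions (451 bp). Of them 70.5% were on macrochromosomes, 6.09% on microchromosomes and 12.2% on Z, against 39.8, 39.6 and 1.802% of the other regions. Their median tags in replicate 1, totals over the whole peak, were lower than those of the others, at 35 against 56. Their median pileup in replicate 2 was 33.5 against 48. Their median fold was also lower in replicate 1, at 11.4 against 16.1, but higher in replicate 2, at 3.94 against 2.81. These contrasts were not made within chromosome classes, nor at like widths of the replicate 1 peaks. Over all regions, median tags were 79 on microchromosomes, 44 on macrochromosomes and 42 on Z, and median pileups were 55, 42 and 31.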

How the data were processed

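The data were 1 deposited peak list per library, none of them pooled. Per the file headers, the authors called replicate 1 with MACS 1.4.2 at a p-value cutoff of 1e-05 against a control, and replicate 2 and the input with MACS 2.0.10.20120913 at a q-value cutoff of 0.05 without one, keeping 1 tag per position. Per the file headers, the deposited values are, in replicate 1, the tag count in the peak, a score (10 times −log10 p), a fold over background and a false discovery rate in percent (0.15% at most). In replicate 2 and the input, per the file headers, the deposited columns are the pileup (signal height at the summit, in tags), −log10 of p and q, and the fold ratio. No source used here states the aligner or the genome build, though folder names in the replicate 1 header hold lifescope and gal3. A gene table of another assembly did not match this build and was not used.

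Coordinates were read as 1-based and closed. Intersections, gaps, chains (1 kb) and bins (100 kb) were computed with Python 3.11.15, numpy 2.4.6 and pandas 2.3.3, and the interval functions were tested on simulated data. Named regions are the 5 widest regions, the 5 of best mean rank by significance, the 5 longest chains, the 5 bins of highest cover, the 5 longest empty stretches, the 3 densest and 3 least dense autosomes, Z and W; those by fold rank, isolated regions and the chromosome 4 boundary were added after values were seen. The regions, rules and alternatives were all chosen with earlier results of these data known.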

Additional observations from a re-analysis of the deposited data

How the results depend on the processing

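Of 74 alternative values, 57 moved by less than the SD between the H4R3me2a replicates (for the number of regions, by less than 1.5 times) and 17 moved by more. The cause of the moves was not tested. The SD comes from 2 of the alternatives, each replicate alone, whose lists differ in platform and caller. It is wide, at 267 bp for the median width of 450.5 bp, so a move within it is a weak sign of stability. With the upper 50% of each list by fold the regions numbered 12619, 13.0% of shared stretches were on input peaks, the median gap was 31875 bp and the ratio of microchromosome to macrochromosome density was 2.04. With peaks at a −log10 p of 10 or more there were 20448 regions, 14.5% of stretches were on input peaks and the median gap was 17278 bp. Both settings keep fewer peaks, which by itself lengthens gaps. With equal numbers of peaks, 9.24% of stretches were on input peaks and the median gap was 7624 bp. The share on input peaks was 3.10% with the upper 50% of the input list and 9.19% with input peaks widened by 500 bp. Peaks of 1 replicate alone, off input peaks, numbered 73918 to 105901, lay on input peaks in 5.16 to 6.63%, and had median widths of 417 to 795 bp, median gaps of 2039 to 3930 bp, 0.316 to 16.5% in chains of 5 or more and density ratios of 2.06 to 3.60. The share in chains depended most on the list: its SD between replicates, 11.5 percentage points, exceeds the value of 0.527% itself, so a move within it is no sign of stability, and it was 10.1% with a gap of 3 kb. With input peaks not removed, an alternative added after the data were seen, there were 60689 regions with a median width of 465 bp and a density ratio of 3.25. Cutting out input bases gives no share of stretches on input peaks. No paired analysis was possible because the input has 1 library and no result comes from a test. Replicate 1 was called from 10.3 M tags and replicate 2 from 31.2 M; a region missing from a list was not detectable under the conditions of that list, and the part of depth in this was not tested.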
